A study of Homo sapiens with 8 samples.

Results

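The genes for Wnt ligands, Frizzled receptors and the secreted Wnt antagonists of the DKK and SFRP families were described in UWB1.289, a line of human ovarian cancer cells, and in its BRCA1-restored derivative. Members were taken by gene symbol, which gave 37 of the 25369 named genes of the table: 19 WNT ligands, 10 FZD receptors, 4 DKK and 4 SFRP antagonists. Of these 37 members, 28 passed the filter on low counts and were tested among 17714 genes. UWB1.289 cells, which carry a mutated BRCA1 and are called BRCA1-null here, were compared with UWB1.289 cells transduced with BRCA1, called BRCA1+. Both lines were kept for 24 h in the vehicle DMSO (control) or in 0.5 μM entinostat, an inhibitor of class I histone deacetylases. Poly(A) RNA was sequenced from 2 libraries in each of the 4 groups. Each genotype was represented by a single line, so an effect of BRCA1 and any other difference that the lines carry cannot be told apart. The labels did not say whether replicates were separate cultures, so p-values measure only the spread between these libraries, which may be technical. In bulk RNA, fewer cells expressing a gene and less RNA per cell cannot be told apart.

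Wnt ligands are lipid-modified secreted proteins. They bind Frizzled receptors on the cell surface together with co-receptors such as LRP6, and the canonical branch of the pathway stabilises β-catenin (CTNNB1), which then activates TCF/LEF-dependent transcription. Non-canonical ligands such as WNT5A act mainly without β-catenin, through cell polarity and calcium signals. SFRP proteins bind Wnt ligands outside the cell, whereas DKK1 binds the LRP co-receptors and blocks canonical signalling. In the female reproductive tract WNT7A is known as an epithelial ligand needed for patterning of the Müllerian duct.

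Library totals ranged from 31900158 to 53549893 counts, so that 3 counts, the limit that a count of 0 allows, corresponded to 0.0552 to 0.0946 CPM, a count scaled to library size. Pearson's r of log2 CPM across genes was 0.991 to 0.992 in the 4 replicate pairs and 0.952 to 0.987 in the 24 other pairs. The label check on BRCA1 gave 98.9 and 92.4 CPM in BRCA1+ control, 133 and 118 CPM in BRCA1+ entinostat, 21 and 22.4 CPM in BRCA1-null control, and 17.6 and 19.2 CPM in BRCA1-null entinostat libraries. BRCA1 was therefore lower in both BRCA1-null groups, as the labels have it (log2 fold change −2.14 ± 0.0861 (SE) in control, adjusted p = 5.46e-07 by edgeR's quasi-likelihood test). The epithelial and serous ovarian carcinoma list of 10 markers summed to 14100 to 18500 CPM per library, most of it from the keratins KRT7, KRT8 and KRT18. On that list PAX8 had group means of 347 to 379 CPM, but WT1, a serous marker, reached only 1 to 20 counts.

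The extracellular Wnt genes of the BRCA1-null line were led by DKK1 and WNT7A and those of the BRCA1+ line by SFRP1. Per gene length (RPKM, CPM per kilobase), the highest mean in BRCA1+ control was that of SFRP1 (48 RPKM), followed by FZD6 (28.1), WNT7A (25.9) and DKK1 (22 RPKM). The libraries of FZD6 (26.6 to 29.5 RPKM) overlapped those of WNT7A (24.2 to 27.7), which overlapped those of DKK1 (18.9 to 25 RPKM), so these neighbours did not differ beyond their spread. In BRCA1-null control the order was DKK1 (118 RPKM), WNT7A (65), FZD6 (28.3), DKK3 (23.5) and SFRP1 (17.5 RPKM). With entinostat the order was SFRP1, FZD6, WNT7A, DKK1 and DKK3 in BRCA1+ cells (35.1, 25.8, 25, 16.2 and 11.5 RPKM). In BRCA1-null cells it was DKK1, WNT7A, DKK3, FZD6 and SFRP1 (107, 69.2, 33.3, 27.9 and 14.9 RPKM). FZD6 and WNT7A also overlapped in BRCA1+ entinostat, whereas all other neighbours among the first 5 places of each group were separate. The same 5 genes thus held the first places in 3 of the groups, and FZD7 (8.79 RPKM) replaced DKK3 in BRCA1+ control.

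Summed over each family, the DKK level was the one furthest apart between the lines. The 4 DKK genes together gave 24.9 to 30.6 RPKM in BRCA1+ control and 26.1 to 29.3 RPKM in BRCA1+ entinostat libraries, against 140 to 144 and 139 to 142 RPKM in the BRCA1-null groups. The 4 SFRP genes went the other way, with 48 to 48.1 and 34.3 to 36 RPKM in the BRCA1+ groups and 15.7 to 19.4 and 14 to 15.9 RPKM in the BRCA1-null groups. Ligands summed to 38.5 to 45.2 and 38.2 to 42.1 RPKM in BRCA1+ cells and to 80.2 to 93.1 and 80.2 to 99.5 RPKM in BRCA1-null cells. The receptors were close in all groups, from 47.2 to 56.6 RPKM over the 8 libraries.

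**Figure D1:**
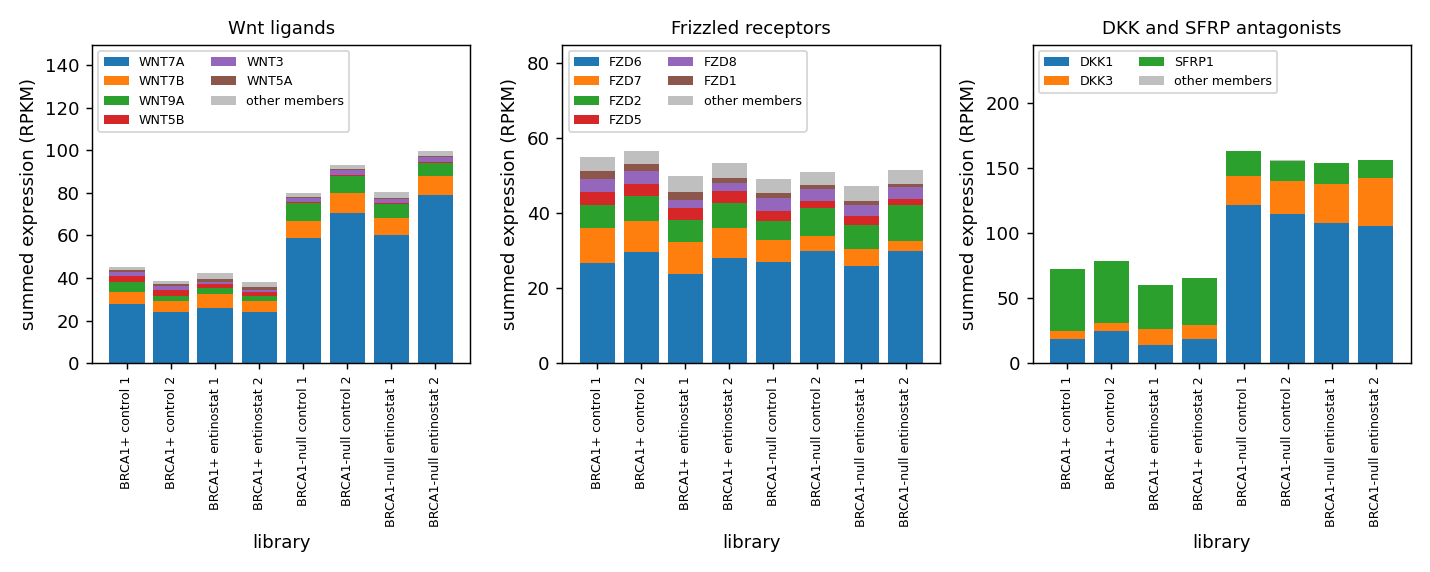
Stacked bars of expression per gene length (y axis, RPKM, from 0) in each of the 8 libraries (x axis), for ligands, receptors and antagonists, with a colour for each leading member and grey for the others. The ligand bars ended at 80.2 to 99.5 RPKM in BRCA1-null and 38.2 to 45.2 RPKM in BRCA1+ libraries, DKK1 and DKK3 filled most of the antagonist bars in BRCA1-null libraries, and the receptor bars ended at 47.2 to 56.6 RPKM.

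Between the lines in control medium, 14 of the 37 members (37.8%, or 50% of the 28 tested) passed an adjusted p of 0.05 (edgeR, Benjamini-Hochberg over 17714 genes), 7 higher and 7 lower in BRCA1-null cells. Over all tested genes 42.2% passed, 21.1% higher and 21% lower, so the share of members was near that of other genes under this rule. The median log2 fold change was 0.12 over the tested members and 0.0117 over all tested genes. With entinostat in both lines 17 members passed (45.9%, or 60.7% of those tested), 10 higher and 7 lower, against 39.4% of all tested genes (20.5% higher, 18.9% lower). By role, the control comparison held 7 ligands (4 higher, 3 lower), 3 receptors (all lower) and 4 antagonists (3 higher, 1 lower). Under entinostat it held 9 ligands (6 higher, 3 lower), 4 receptors (1 higher, 3 lower) and the same count of antagonists. DKK2, among the higher antagonists in both media, passed the filter on low counts through the BRCA1-null libraries only. When a log2 fold change of at least 1 in either direction was also required, 10 members passed in control (35.7% of those tested) and 12 under entinostat (42.9%), against 12.4% and 10.5% of all tested genes. Under entinostat fewer members passed without BRCA1+ entinostat replicate 2, as did fewer of all tested genes.

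**Figure D2:**
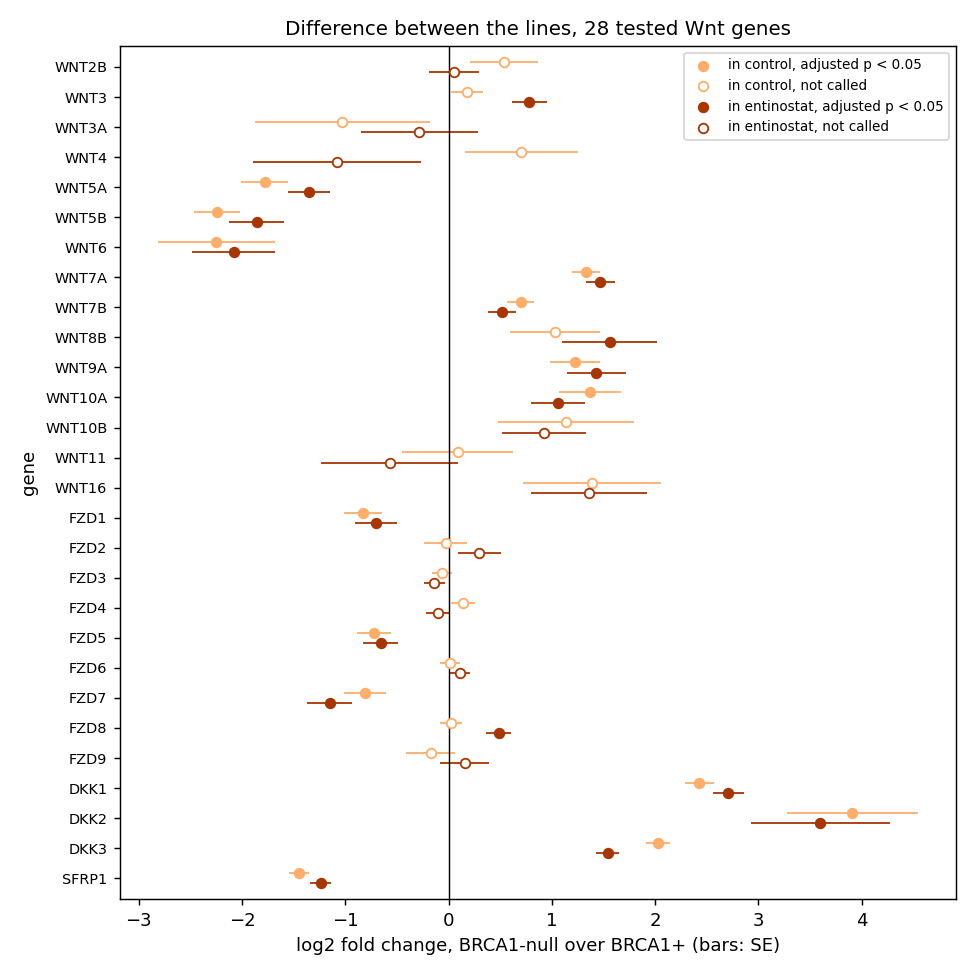
Log2 fold change of BRCA1-null over BRCA1+ cells (x axis, bars are SE) for the 28 tested Wnt genes, in control and in entinostat, with filled points for adjusted p under 0.05 and open points for the others. DKK2, DKK1 and DKK3 lay furthest to the right in control (3.91, 2.43 and 2.03), and WNT6, WNT5B, WNT5A and SFRP1 furthest to the left (−2.25, −2.24, −1.78 and −1.45). DKK2 passed the filter on low counts through the BRCA1-null libraries only.

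Among the ligands, WNT7A was the most abundant. It lies on chr3:13860082-13921618 (hg19, minus strand). Libraries of BRCA1+ cells held 47.4 and 41.5 CPM in control and 44.6 and 41 CPM in entinostat, and BRCA1-null libraries 101 and 121 CPM in control and 103 and 135 CPM in entinostat. Every BRCA1-null library was above every BRCA1+ library. WNT7A was 2.51-fold higher in BRCA1-null control cells (log2 1.33 ± 0.137, adjusted p = 8.1e-05) and 2.78-fold higher under entinostat (log2 1.47 ± 0.139, adjusted p = 5.24e-05). It made up 61.2 to 62.9% of the summed ligand RPKM in BRCA1+ control and 73.8 to 75.9% in BRCA1-null control. Of its 50 nearest tested genes on the chromosome, 24 were higher and 8 lower in BRCA1-null control, with a median log2 fold change of 0.41. That was the highest such median among the members tested, the lowest being −0.25 around FZD5, and its part in the WNT7A value was not tested. Entinostat left WNT7A within the spread of the libraries in BRCA1+ (log2 −0.06, 95% interval −0.38 to 0.26) and BRCA1-null cells (0.09, −0.2 to 0.38).

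WNT7B, the close relative of WNT7A, had 22 and 19.1 CPM in BRCA1+ control, 25.9 and 21.5 CPM in BRCA1+ entinostat, 30.2 and 36.1 CPM in BRCA1-null control and 31 and 36.5 CPM in BRCA1-null entinostat libraries. It was 1.62-fold higher in BRCA1-null control cells (log2 0.70 ± 0.133, adjusted p = 0.00272). Under entinostat it was 1.43-fold higher (log2 0.52 ± 0.133, adjusted p = 0.0128), a call lost without BRCA1+ entinostat replicate 2 (log2 0.38, adjusted p = 0.129) or without BRCA1-null entinostat replicate 2 (0.40, adjusted p = 0.082). WNT9A had 6.05 and 3.05 CPM in BRCA1+ control, 3.44 and 2.48 CPM in BRCA1+ entinostat, 10.9 and 10 CPM in BRCA1-null control and 8.19 and 7.3 CPM in BRCA1-null entinostat libraries. All BRCA1-null libraries were above all BRCA1+ libraries for both genes. WNT9A was 2.34-fold (log2 1.22 ± 0.242, adjusted p = 0.00332) and, under entinostat, 2.69-fold higher (log2 1.43 ± 0.286, adjusted p = 0.00364). Its call under entinostat was lost without BRCA1+ entinostat replicate 2 (log2 1.17, adjusted p = 0.0537). The annotated span of WNT9A overlaps the microRNA gene MIR5008, and whether the counting used strand was not stated.

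WNT5A and WNT5B, ligands best known from the non-canonical branch, were lower in BRCA1-null cells. WNT5A had 5.63 and 6.14 CPM in BRCA1+ control and 8.17 and 7.29 CPM in BRCA1+ entinostat, against 2.04 and 1.43 CPM in BRCA1-null control and 3.6 and 2.37 CPM in BRCA1-null entinostat libraries. For WNT5B the values were 6.48 and 6.6, 3.72 and 4.48, 1.08 and 1.64, and 0.874 and 1.44 CPM in the same order of groups. The lines did not overlap for either gene. WNT5A was 3.43-fold lower in the BRCA1-null control group (log2 −1.78 ± 0.229, adjusted p = 0.000297) and 2.54-fold lower under entinostat (log2 −1.35 ± 0.204, adjusted p = 0.000775). WNT5B was 4.74-fold (log2 −2.24 ± 0.223, adjusted p = 6.53e-05) and 3.64-fold lower (log2 −1.86 ± 0.265, adjusted p = 0.000541). WNT5B made up 6.2 to 7.42% of the ligand RPKM in BRCA1+ control and 0.581 to 0.761% in BRCA1-null control.

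WNT6 and WNT10A, ligands that lie next to each other on chromosome 2 with 6300 bases between them (chr2:219724546-219738954 and chr2:219745255-219758651, hg19, both on the plus strand), had opposite directions between the lines. The RefSeq promoter windows of both, 250 bases before to 50 bases after the annotated start (GRCh38.p14, chr2:218859555-218859854 and chr2:218880602-218880901, plus strand), are shown because these neighbours differ in direction. Capitals mark the GC box letters GGGCGG on either strand.
WNT6 promoter: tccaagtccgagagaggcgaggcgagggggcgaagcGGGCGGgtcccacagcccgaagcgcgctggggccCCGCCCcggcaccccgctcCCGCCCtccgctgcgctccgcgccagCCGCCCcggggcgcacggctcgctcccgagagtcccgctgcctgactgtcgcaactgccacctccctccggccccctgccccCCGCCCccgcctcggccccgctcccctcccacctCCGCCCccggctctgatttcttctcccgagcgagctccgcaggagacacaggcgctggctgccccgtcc
WNT10A promoter: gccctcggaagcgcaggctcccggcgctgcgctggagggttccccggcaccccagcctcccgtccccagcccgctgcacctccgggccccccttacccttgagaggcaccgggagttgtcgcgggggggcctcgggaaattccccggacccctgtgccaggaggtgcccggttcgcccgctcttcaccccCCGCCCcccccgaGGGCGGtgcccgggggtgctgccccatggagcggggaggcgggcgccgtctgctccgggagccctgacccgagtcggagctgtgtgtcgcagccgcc
The WNT6 window held 6 matches and 37 CG dinucleotides and the WNT10A window 2 matches and 30 CG dinucleotides. A match was present in 45.0% of 35116 RefSeq promoters of the same length and for 23 of the 25 members found among them. These letters are a description of the window only. WNT6 had 30 and 16 counts (0.75 and 0.349 CPM) in BRCA1+ control, 32 and 58 counts (1.01 and 1.25 CPM) in BRCA1+ entinostat, 4 and 7 counts (0.0879 and 0.129 CPM) in BRCA1-null control and 13 and 11 counts (0.277 and 0.263 CPM) in BRCA1-null entinostat libraries. WNT10A had 0.575 and 0.414 CPM in BRCA1+ control, 0.82 and 0.798 CPM in BRCA1+ entinostat, 1.08 and 1.43 CPM in BRCA1-null control and 1.73 and 1.63 CPM in BRCA1-null entinostat libraries. Each gene separated the lines without overlap within both media. WNT6 was 4.77-fold lower in BRCA1-null control (log2 −2.25 ± 0.565, adjusted p = 0.011) and 4.22-fold lower under entinostat (log2 −2.08 ± 0.402, adjusted p = 0.00306). WNT10A was 2.59-fold higher (log2 1.37 ± 0.303, adjusted p = 0.00588) and 2.08-fold higher (log2 1.06 ± 0.265, adjusted p = 0.0115). The control call of WNT6 was lost without BRCA1+ control replicate 1 (log2 −1.64, adjusted p = 0.0791) and that of WNT10A without BRCA1+ control replicate 2 (1.14, adjusted p = 0.0612). Under entinostat WNT10A was not called without BRCA1+ entinostat replicate 1, without BRCA1+ entinostat replicate 2 or without BRCA1-null entinostat replicate 1 (adjusted p = 0.0508, 0.0908 and 0.0522), nor by the DESeq2 Wald test (0.0651).

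WNT3, a canonical ligand, had 5.98 and 6.14 CPM in BRCA1+ control, 4.29 and 3.73 CPM in BRCA1+ entinostat, 5.96 and 7.69 CPM in BRCA1-null control and 6.53 and 7.16 CPM in BRCA1-null entinostat libraries. The lines overlapped in control and were separate under entinostat, where WNT3 was 1.72-fold higher in BRCA1-null cells (log2 0.78 ± 0.171, adjusted p = 0.00573). That call was lost without BRCA1+ entinostat replicate 2 (log2 0.67, adjusted p = 0.0724). WNT8B, a ligand best known from the brain, stayed under 1 CPM, with 3 to 13 counts in BRCA1+ and 23 to 30 counts in BRCA1-null libraries. It was called under entinostat only (log2 1.56 ± 0.458, adjusted p = 0.0234, against 0.0877 in control), not by the DESeq2 Wald test (adjusted p = 0.0993), and not without BRCA1+ entinostat replicate 1 (0.123) or BRCA1-null entinostat replicate 2 (0.107).

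All FZD receptors that passed the test in control were lower in BRCA1-null cells, while FZD6, the most abundant receptor, had no detectable difference. FZD6 had 105 and 116 CPM in BRCA1+ control and 106 and 117 CPM in BRCA1-null control libraries, and the log2 difference was 0.01 with a 95% interval of −0.21 to 0.24. FZD7, a receptor of canonical signalling, had 35.5 and 32.2 CPM in BRCA1+ control, 32.5 and 30.7 CPM in BRCA1+ entinostat, 22.8 and 16.1 CPM in BRCA1-null control and 17.7 and 10.6 CPM in BRCA1-null entinostat libraries. Replicates of the BRCA1-null groups lay further apart than those of the BRCA1+ groups, but the lines did not overlap. FZD7 was 1.75-fold lower in BRCA1-null control (log2 −0.81 ± 0.206, adjusted p = 0.012) and 2.21-fold lower under entinostat (log2 −1.15 ± 0.218, adjusted p = 0.00278). Its control call was lost without BRCA1+ control replicate 1 (log2 −0.74, adjusted p = 0.0547) or BRCA1-null control replicate 2 (−0.57, adjusted p = 0.0881). FZD6 made up 48.5 to 52.2% of the summed receptor RPKM in BRCA1+ control and 55 to 58.2% in BRCA1-null control, and FZD7 14.8 to 16.8% and 8.19 to 12.1%.

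FZD5, a receptor of canonical signals that lies 5724149 bases from FZD7 on chromosome 2, had 22.2 and 21.6 CPM in BRCA1+ control, 20.8 and 20.5 CPM in BRCA1+ entinostat, 15.9 and 10.9 CPM in BRCA1-null control and 14.7 and 11.4 CPM in BRCA1-null entinostat libraries. FZD1 had 9.18 and 7.97, 8.45 and 6.6, 5.38 and 4.32, and 5.2 and 3.83 CPM in the same order. Both were separate between the lines. FZD5 was 1.65-fold lower in BRCA1-null control (log2 −0.72 ± 0.166, adjusted p = 0.00727) and FZD1 1.77-fold lower (log2 −0.83 ± 0.186, adjusted p = 0.00648). Under entinostat FZD5 was 1.58-fold (log2 −0.66 ± 0.172, adjusted p = 0.0137) and FZD1 1.63-fold lower (log2 −0.70 ± 0.2, adjusted p = 0.0204). FZD1 lost its control call without BRCA1-null control replicate 2 (log2 −0.67, adjusted p = 0.0531). Its entinostat call went without BRCA1+ entinostat replicate 1 (−0.55, adjusted p = 0.112) or BRCA1-null entinostat replicate 2 (−0.51, adjusted p = 0.115). For FZD5 the entinostat call went without either BRCA1+ entinostat library (adjusted p = 0.0515 without replicate 1 and 0.0618 without replicate 2) or without BRCA1-null entinostat replicate 2 (0.0859). The other receptors, FZD2, FZD3, FZD4 and FZD9, passed in neither comparison of the lines, and FZD9 overlaps 5 annotated genes, so its counts are uncertain.

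Of the antagonists, DKK1 had the largest difference in mean CPM between the lines in control, 39.6 against 214. It lies on chr10:54074041-54077417 (hg19, plus strand). Libraries held 34.2 and 45.1 CPM in BRCA1+ control, 24.9 and 33.6 CPM in BRCA1+ entinostat, 220 and 208 CPM in BRCA1-null control and 195 and 191 CPM in BRCA1-null entinostat. The lines were far apart in both media. DKK1 was 5.38-fold higher in BRCA1-null control (log2 2.43 ± 0.142, adjusted p = 3.8e-06) and 6.54-fold higher under entinostat (log2 2.71 ± 0.147, adjusted p = 2.97e-06). The median log2 fold change of its 50 nearest tested genes was −0.05 in control. The RefSeq promoter windows of DKK1 (GRCh38.p14, chr10:52314031-52314330, plus strand) and WNT7A (chr3:13880022-13880321, minus strand), each 250 bases before to 50 bases after the start and written 5′ to 3′, are shown because these genes had the highest levels per length in BRCA1-null cells. Capitals mark the TATA box letters TATAAA, the GC box letters GGGCGG and TCF/LEF cores, which are CTTTG followed by AA, AT, TA or TT, all searched on both strands.
DKK1 promoter: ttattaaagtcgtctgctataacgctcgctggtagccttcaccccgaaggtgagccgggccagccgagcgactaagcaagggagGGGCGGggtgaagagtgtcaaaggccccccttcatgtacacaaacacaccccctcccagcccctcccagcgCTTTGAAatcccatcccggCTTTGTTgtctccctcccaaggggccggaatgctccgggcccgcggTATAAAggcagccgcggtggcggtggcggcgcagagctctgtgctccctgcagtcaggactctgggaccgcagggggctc
WNT7A promoter: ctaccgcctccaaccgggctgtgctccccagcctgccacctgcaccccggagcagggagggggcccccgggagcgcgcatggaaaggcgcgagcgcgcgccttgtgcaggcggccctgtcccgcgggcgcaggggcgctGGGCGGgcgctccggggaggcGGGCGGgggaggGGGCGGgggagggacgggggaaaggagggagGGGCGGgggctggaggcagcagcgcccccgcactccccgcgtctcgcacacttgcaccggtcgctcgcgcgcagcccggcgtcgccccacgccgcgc
The DKK1 window held TATAAA at −30 to −25 from the start, 1 GC box and TCF/LEF cores at −95 to −89 and −76 to −70. The WNT7A window held 4 GC boxes, neither other motif, and 40 CG dinucleotides, more than 92.4% of promoters, against 20 in DKK1. TATAAA was present in 11.5%, GGGCGG in 45.0% and a TCF/LEF core in 13.8% of the 35116 promoters. Of the 25 members matched in the RefSeq table, GGGCGG was found for 23, TATAAA for DKK1, FZD8 and WNT5B and a TCF/LEF core for DKK1 and WNT3.

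DKK3, a divergent relative of DKK1 that is not known to block the LRP co-receptors in the same way, had 17.6 and 16.7 CPM in BRCA1+ control, 37 and 31.7 CPM in BRCA1+ entinostat, 65.7 and 74.6 CPM in BRCA1-null control and 90.5 and 109 CPM in BRCA1-null entinostat libraries. The 4 groups did not overlap and stood in that order. DKK3 was 4.10-fold higher in BRCA1-null control (log2 2.03 ± 0.119, adjusted p = 3.83e-06) and 2.91-fold higher under entinostat (log2 1.54 ± 0.112, adjusted p = 1.36e-05). DKK2, a further DKK family antagonist, was sparse, with 4, 0, 2 and 2 counts in the BRCA1+ libraries and 32, 42, 33 and 25 counts in the BRCA1-null libraries. The ratio of summed counts per library size was 15.9 in control (74 against 4 counts, exact 95% interval 5.96 to 59.9) and 12.8 under entinostat (58 against 4, 4.73 to 48.5), intervals that cover counting error only. DKK2 passed the filter on low counts through the BRCA1-null libraries only, so its test between the lines is no separate support for the difference. By edgeR the adjusted p was 0.000626 and 0.00156. The fitted log2 value in control moved from 3.91 to 2.85 without BRCA1+ control replicate 2, the library with 0 counts.

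SFRP1, almost the whole SFRP sum, was at 214 and 215 CPM in BRCA1+ control, 153 and 161 CPM in BRCA1+ entinostat, 86.5 and 70.3 CPM in BRCA1-null control and 70.8 and 62.4 CPM in BRCA1-null entinostat libraries. The BRCA1-null libraries were below every BRCA1+ library. It was 2.74-fold lower in BRCA1-null control (log2 −1.45 ± 0.097, adjusted p = 7.4e-06) and 2.36-fold lower under entinostat (log2 −1.24 ± 0.0982, adjusted p = 2.11e-05). DKK1, DKK3 and SFRP1 thus formed no common direction among the antagonists, the DKK genes being higher and SFRP1 lower in BRCA1-null cells. The calls of DKK1, DKK3, SFRP1, WNT7A, WNT5A and WNT5B between the lines held in both media under every alternative run.

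**Figure D3:**
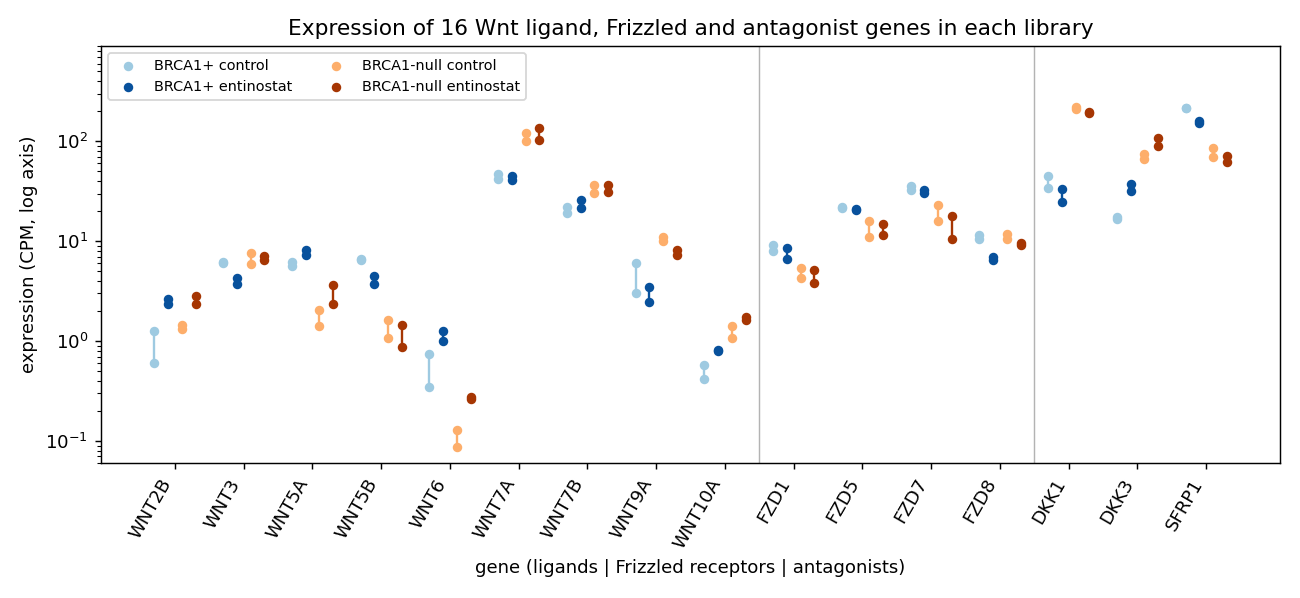
CPM (log axis) of the 16 members that passed in at least 1 comparison and averaged at least 1 CPM in a group, with a point for each library, coloured by group, and a line joining the 2 libraries of a group. DKK1 and DKK3 lay higher and SFRP1 lower in the BRCA1-null groups, and the entinostat libraries of DKK3 lay above the control libraries in each line (90.5 and 109 against 65.7 and 74.6 CPM in BRCA1-null cells).

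Entinostat changed few members. In BRCA1+ cells 6 members passed (16.2%, or 21.4% of those tested), WNT2B and DKK3 higher and WNT3, WNT5B, FZD8 and SFRP1 lower, against 14.1% of all tested genes (8.13% higher, 6% lower). Only WNT2B (3.57% of those tested) in BRCA1+ cells and no member in BRCA1-null cells also had a log2 fold change of at least 1, against 2.91% and 3% of all tested genes. DKK3 in BRCA1+ cells lay just under that limit, at log2 0.997. With upper-quartile scaling 5 members passed in BRCA1+ cells, 3 higher and 2 lower, and the share of higher calls among all genes called was 72.5% in place of 57.6%. In BRCA1-null cells DKK3 was the single member that passed, 2.7% of the members (3.57% of those tested) against 10.8% of all tested genes (7.57% higher, 3.19% lower), and 8 members had an unadjusted p under 0.05. Over the tested members the median log2 fold change was −0.05 in BRCA1+ and 0.00 in BRCA1-null cells, beside 0.000413 and 0.0188 over all tested genes. Fewer members passed in BRCA1+ cells without either BRCA1+ entinostat library, where fewer of all tested genes passed as well. In BRCA1-null cells no member passed without BRCA1-null entinostat replicate 2, and a further member passed without any of the 4 BRCA1+ libraries. Fewer of all tested genes passed in each of these fits. In the test of the difference between the responses of the lines no member passed by edgeR or DESeq2 (0% of all genes by edgeR), and 3 members had an unadjusted p under 0.05: WNT3 (0.0271), FZD8 (0.017) and DKK3 (0.0141). The entinostat and line comparisons share control libraries.

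**Figure D4:**
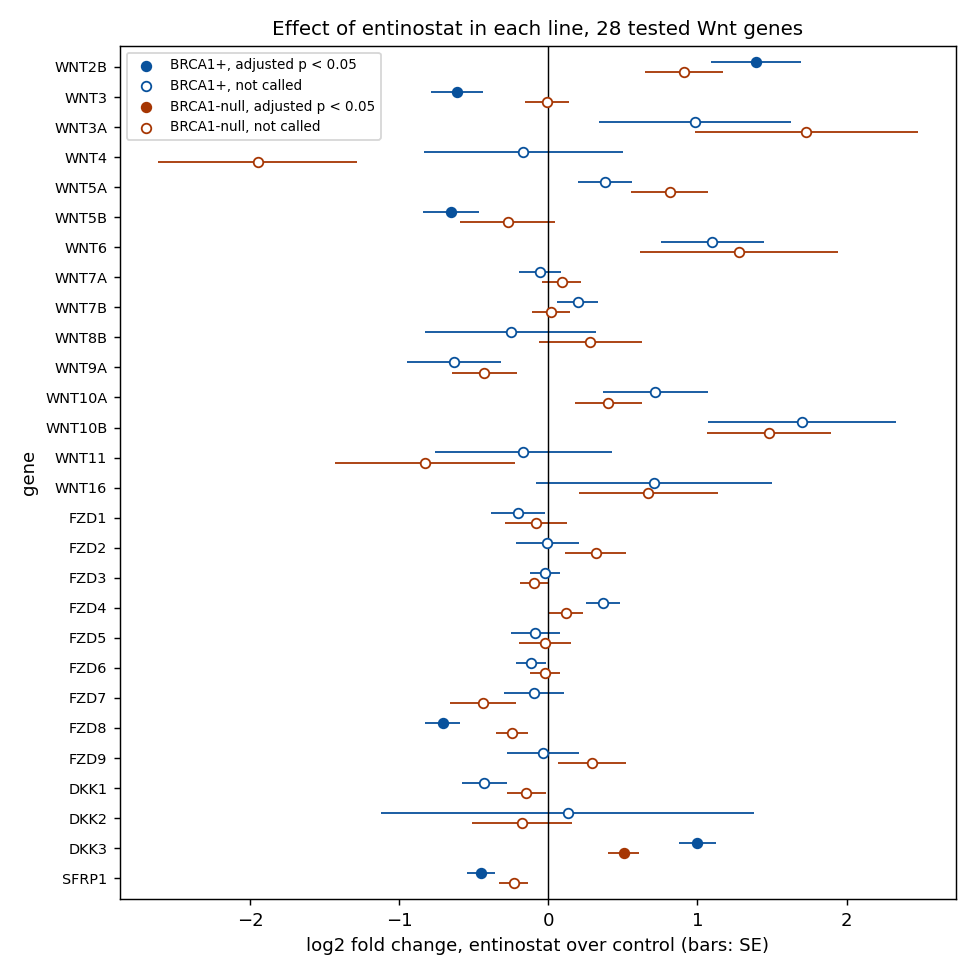
Log2 fold change of entinostat over control (x axis, bars are SE) for the 28 tested Wnt genes in BRCA1+ and BRCA1-null cells, with filled points for adjusted p under 0.05 and open points for the others. DKK3 had a filled point in both lines, at 1.00 and 0.50, and 5 further genes had one in BRCA1+ cells.

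DKK3 rose with entinostat in both lines, 2-fold in BRCA1+ cells (log2 1.00 ± 0.124, adjusted p = 0.00189) and 1.42-fold in BRCA1-null cells (log2 0.50 ± 0.105, adjusted p = 0.0193). The difference between these responses was −0.49 ± 0.163 (adjusted p = 0.967). In BRCA1-null cells the DKK3 call was lost when the 2 groups were fitted alone (0.48, adjusted p = 0.0599), without BRCA1-null control replicate 1 (0.39, adjusted p = 0.0986) and without BRCA1-null entinostat replicate 2 (0.37, adjusted p = 0.0917). SFRP1 fell 1.37-fold in BRCA1+ cells (log2 −0.45 ± 0.0946, adjusted p = 0.0155), and its value in BRCA1-null cells was −0.23 ± 0.0984 (adjusted p = 0.163). The SFRP1 call was lost without any of the 4 BRCA1+ libraries (adjusted p = 0.0587 and 0.072 without control replicates 1 and 2, 0.1 and 0.0739 without entinostat replicates 1 and 2). DKK1 did not pass by edgeR in either line, with log2 −0.43 (95% interval −0.77 to −0.09, adjusted p = 0.0918) in BRCA1+ and −0.15 (−0.44 to 0.14, adjusted p = 0.511) in BRCA1-null cells. In BRCA1+ cells DKK1 was called lower by DESeq2's Wald test (−0.43, adjusted p = 0.0106), in the fit blocked on replicate number (0.0368) and without BRCA1+ control replicate 1 (−0.61, adjusted p = 0.0437).

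FZD8, a receptor gene that overlaps the microRNA gene MIR4683, had 11.4 and 10.5 CPM in BRCA1+ control, 6.94 and 6.49 CPM in BRCA1+ entinostat, 11.7 and 10.5 CPM in BRCA1-null control and 9.15 and 9.6 CPM in BRCA1-null entinostat libraries. It fell 1.63-fold with entinostat in BRCA1+ cells (log2 −0.71 ± 0.118, adjusted p = 0.00625), a call lost without BRCA1+ entinostat replicate 2 (−0.66, adjusted p = 0.0695), and was at −0.24 ± 0.107 in BRCA1-null cells (adjusted p = 0.182). The lines were alike in control (0.02, 95% interval −0.22 to 0.26) and differed under entinostat (0.49 ± 0.12, adjusted p = 0.0106), the latter lost without BRCA1+ entinostat replicate 2 (adjusted p = 0.0984) or BRCA1-null entinostat replicate 2 (0.0519). The test of the difference in response gave 0.47 ± 0.16 (adjusted p = 0.967).

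Among the ligands, WNT2B, a canonical ligand, had 0.6 and 1.26 CPM in BRCA1+ control, 2.33 and 2.63 CPM in BRCA1+ entinostat, 1.45 and 1.32 CPM in BRCA1-null control and 2.37 and 2.85 CPM in BRCA1-null entinostat libraries. Entinostat libraries were above control libraries in both lines. WNT2B rose 2.62-fold in BRCA1+ cells (log2 1.39 ± 0.302, adjusted p = 0.0179) and reached 0.91 ± 0.26 in BRCA1-null cells (adjusted p = 0.056). The BRCA1+ call was lost without BRCA1+ control replicate 1 (0.99, adjusted p = 0.0776), entinostat replicate 1 (1.47, adjusted p = 0.0605) or entinostat replicate 2 (1.29, adjusted p = 0.13), and in BRCA1-null cells WNT2B passed without BRCA1+ control replicate 1 (adjusted p = 0.0403) or replicate 2 (0.0383). WNT3 and WNT5B were close to the threshold in BRCA1+ cells (log2 −0.61 ± 0.175, adjusted p = 0.048, and −0.65 ± 0.189, adjusted p = 0.0497). Without any of the 4 BRCA1+ libraries both were lost (adjusted p = 0.121 to 0.276 for WNT3 and 0.131 to 0.225 for WNT5B), and WNT3 also without BRCA1-null entinostat replicate 1 (0.0587) or replicate 2 (0.0591). Both were also lost with upper-quartile factors (adjusted p = 0.0632 for WNT3 and 0.0641 for WNT5B) and with the stricter filter on low counts (0.053 and 0.0529). WNT5B was lost as well with DESeq2 size factors (0.0507), without the filter (0.0508) and by the DESeq2 Wald test (0.109). In BRCA1-null cells WNT3 was at −0.01 (95% interval −0.34 to 0.33) and WNT5B at −0.27 ± 0.32 (adjusted p = 0.637).

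Several ligands of low count had more counts in the entinostat libraries without passing the test. Of these, WNT10B and WNT3A passed the filter on low counts through the entinostat libraries, so their entinostat tests are no separate support for a rise. WNT10B, a canonical ligand, had 4 and 6 counts in BRCA1+ control, 19 and 11 counts in BRCA1+ entinostat, 9 and 17 counts in BRCA1-null control and 35 and 30 counts in BRCA1-null entinostat libraries, with log2 1.70 (adjusted p = 0.109) and 1.48 ± 0.417 (adjusted p = 0.0527). In BRCA1-null cells WNT10B passed without BRCA1+ entinostat replicate 1 (adjusted p = 0.0446) or replicate 2 (0.0465), and between the lines under entinostat it passed without BRCA1+ entinostat replicate 1 (log2 1.60, adjusted p = 0.032). Of the ligands described above, with entinostat in BRCA1+ cells WNT6 passed without BRCA1+ control replicate 1 (1.72, adjusted p = 0.0418) and WNT9A without BRCA1+ control replicate 2 (−1.07, adjusted p = 0.0384). WNT5A passed in BRCA1-null cells by the DESeq2 Wald test (0.78, adjusted p = 0.0473). WNT1, which lies 6594 bases from WNT10B on chromosome 12, did not pass the filter. It had 1 count in each control library, 5 and 8 counts in BRCA1+ entinostat and 11 and 4 counts in BRCA1-null entinostat libraries. The ratio of summed WNT1 counts per library size was 7.15 (13 against 2 counts, exact 95% interval 1.62 to 65.2) in BRCA1+ and 8.45 (15 against 2, 1.96 to 76.1) in BRCA1-null cells. In a fit without the filter WNT1 was called in both lines (adjusted p = 0.049 and 0.0378). WNT3A had 14 and 2 counts in BRCA1+ control, 15 and 14 counts in BRCA1+ entinostat, 5 and 4 counts in BRCA1-null control and 15 and 12 counts in BRCA1-null entinostat libraries, a ratio of 3.38 (1.54 to 8.17) in BRCA1-null cells.

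The remaining members held few counts or no called difference. WNT4, WNT11 and WNT16 had mean levels of at most 0.6 CPM in every group. WNT16 had 5, 5, 8 and 7 counts in BRCA1+ and 22, 9, 27 and 17 counts in BRCA1-null libraries. It passed the filter on low counts through the BRCA1-null libraries, so its tests between the lines are no separate support for a difference. Likewise WNT4 passed the filter through the control libraries, so its entinostat tests are no separate support for a fall. WNT4, a ligand of female gonad development, had 10 and 30 counts in BRCA1-null control and 6 and 3 counts in BRCA1-null entinostat libraries (log2 −1.95 ± 0.669, adjusted p = 0.0976), and it passed without BRCA1-null control replicate 1 (adjusted p = 0.0477). WNT16 passed between the lines, higher in BRCA1-null cells, in control without BRCA1-null control replicate 2 (log2 2.03, adjusted p = 0.0264). It also passed under entinostat without BRCA1-null control replicate 1 (1.34, adjusted p = 0.0373) or replicate 2 (1.35, adjusted p = 0.0382) and with a replicate block (1.26, adjusted p = 0.0485). FZD2, FZD3 and FZD4 had means of 11.3 to 30.4 CPM and FZD9 of 1.9 to 2.3 CPM. WNT8A and FZD10 had 0 counts in all 8 libraries, which allows up to 0.0946 CPM in the shallowest. WNT2, WNT9B, DKK4, SFRP2, SFRP4 and SFRP5 had at most 6 counts in any library and were not tested, so that differences in them were not detectable at this depth.

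The other pathway genes were read from a list of 58 genes. It covered ligand secretion, co-receptors, the R-spondin system, other extracellular antagonists, the cytoplasmic relay, nuclear factors and common β-catenin targets. Of the 6 other extracellular antagonists only FRZB was tested, and it was not called between the lines (adjusted p = 0.486 in control and 0.0686 under entinostat). In all, 50 of the 58 genes were tested. In control 26 passed between the lines, 11 higher and 15 lower in BRCA1-null cells (median log2 −0.09), and under entinostat 21 (7 higher, 14 lower, median −0.08). Of all tested genes 42.2% passed in control and 39.4% under entinostat. NOTUM, an enzyme that removes the lipid from Wnt ligands and inactivates them, had 522 and 478 counts in BRCA1+ control, 499 and 625 counts in BRCA1+ entinostat, 20 and 8 counts in BRCA1-null control and 61 and 34 counts in BRCA1-null entinostat libraries. It was the listed gene with the largest difference, lower in BRCA1-null cells by log2 −5.37 ± 0.323 in control and −3.76 ± 0.25 under entinostat. In control its value was −6.26 without BRCA1-null control replicate 1 and −4.72 without BRCA1-null control replicate 2. WLS, the carrier that brings Wnt ligands to the cell surface, was also lower (log2 −0.57 ± 0.0683, adjusted p = 0.000196). In control the co-receptors LRP6 (−0.60 ± 0.0832) and PTK7 (−0.61 ± 0.0732) were lower and KREMEN2, a DKK1 receptor, was higher (0.59 ± 0.165). Its relative KREMEN1 went the other way, without a call in control (−0.42 ± 0.163, adjusted p = 0.0673). Under entinostat KREMEN1 was lower (−1.12 ± 0.17, adjusted p = 0.000789) and KREMEN2 was not called (0.29, adjusted p = 0.17). In the R-spondin system LGR4, a receptor for R-spondins, was lower (−0.91 ± 0.0875), while RNF43, a ligase that removes Frizzled receptors, and the ligand RSPO4 were higher (0.58 ± 0.133 and 0.34 ± 0.101). KREMEN2 lost its call without BRCA1+ control replicate 2 (adjusted p = 0.12) or BRCA1-null control replicate 2 (0.104) and RNF43 without BRCA1+ control replicate 1 (0.0503). RSPO4 lost it without BRCA1+ control replicate 2 (log2 0.19, adjusted p = 0.159) or either BRCA1-null control library (0.0552 without replicate 1 and 0.0771 without replicate 2).

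Inside the cell, CTNNB1 was lower by log2 −0.27 ± 0.0478 in BRCA1-null control (adjusted p = 0.00164), from a mean of 411 to 340 CPM, and by −0.28 ± 0.0478 under entinostat (adjusted p = 0.00153). AXIN2, a feedback target of β-catenin, did not pass in either medium (−0.67 ± 0.281, adjusted p = 0.0839, and −0.51, adjusted p = 0.144) at means of 1.29 CPM in BRCA1+ and 0.82 CPM in BRCA1-null control. APC, a scaffold of the destruction complex, was lower (−0.89 ± 0.0776), and of its 50 nearest tested genes 31 passed, all lower, with a median of −0.59. DVL2, which relays the receptor signal, was lower (−0.45 ± 0.068). NKD1, a feedback inhibitor, was higher (1.49 ± 0.488, adjusted p = 0.0352) with 38 counts in BRCA1-null control replicate 2 and 7 to 15 in the others. That call was lost without BRCA1-null control replicate 2 (0.81, adjusted p = 0.266), BRCA1+ control replicate 1 (0.0761) or 2 (0.187), or BRCA1+ entinostat replicate 1 (0.0529) or 2 (0.0532), and by DESeq2 (0.184). Among nuclear factors TCF7L1, a mostly repressive TCF, was lower (−2.06 ± 0.209), as was the corepressor TLE4 (−0.77 ± 0.108), and its relative TLE2 was higher (0.92 ± 0.138). Of the 12 tested targets 5 were higher and 1, NOTUM, lower in control, beside 21.1% and 21% of all tested genes. Under entinostat 3 were higher and 1, again NOTUM, lower, beside 20.5% and 18.9% of all tested genes. NKD1 (−0.05) and TCF7 (−0.08) were not called there. The largest rise among the targets in control after NKD1 was that of CD44, a cell surface glycoprotein, from 99.6 to 250 CPM (1.33 ± 0.117).

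**Figure D5:**
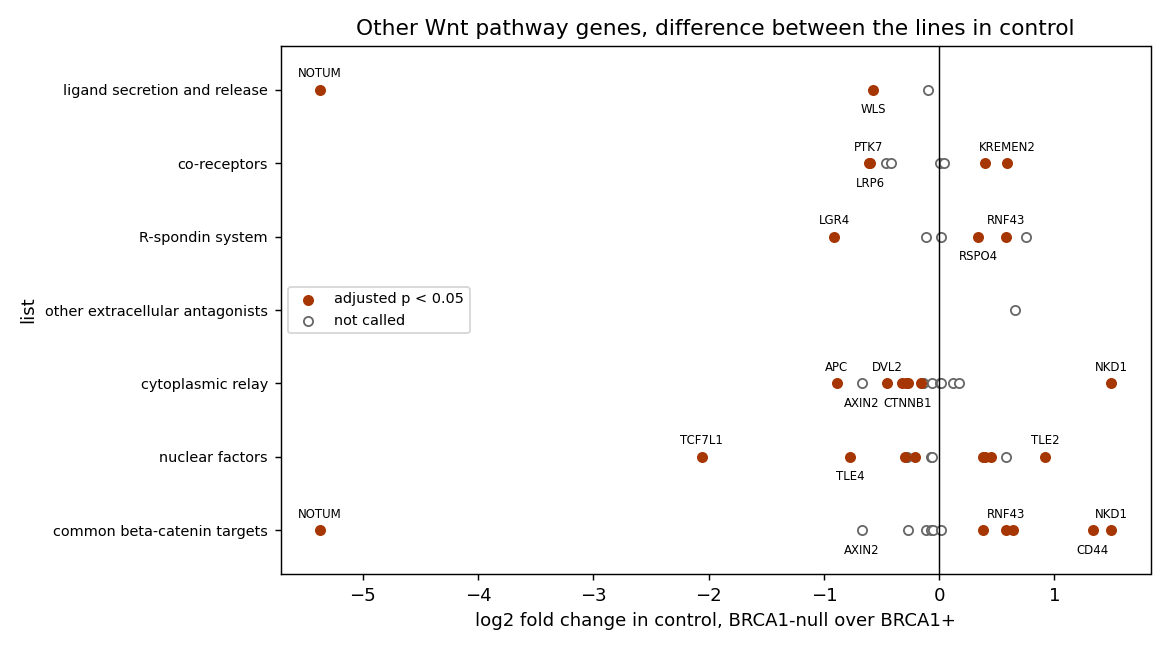
Log2 fold change of BRCA1-null over BRCA1+ cells in control (x axis) for the 50 tested pathway genes outside the WNT, FZD, DKK and SFRP families, by list (y axis, some genes stand in more than 1 list), with filled points for adjusted p under 0.05 and open points for the others. NOTUM lay furthest from 0, at −5.37, followed by TCF7L1 at −2.06.

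With entinostat 11 of the 50 tested pathway genes passed in BRCA1+ cells, 8 of them higher, and 7 passed in BRCA1-null cells, 6 of them higher, with a median of 0.06 in each line. Over all tested genes 14.1% passed in the BRCA1+ line and 10.8% in the BRCA1-null line, and 57.6% and 70.4% of those calls were higher, so that calls were mostly higher among all genes too. WLS rose in both, by log2 0.64 ± 0.0671 (adjusted p = 0.000861) and 0.55 ± 0.0683 (adjusted p = 0.00278), and TLE2 by 1.20 ± 0.138 and 0.70 ± 0.12. LEF1, a nuclear partner of β-catenin, rose by 1.03 ± 0.274 (adjusted p = 0.037) and 1.12 ± 0.259 (adjusted p = 0.0286), and PTK7 by 0.26 ± 0.0725 and 0.28 ± 0.0734. In BRCA1+ cells PORCN, the enzyme that attaches the lipid to Wnt ligands (0.41 ± 0.104, adjusted p = 0.0317), KREMEN2 (0.64 ± 0.17) and TCF7 (0.53 ± 0.135) rose, and DVL1 (−0.33 ± 0.0698), GSK3A (−0.30 ± 0.084) and CCND1 (−0.45 ± 0.0934) fell. In BRCA1-null cells TCF7L1 rose by 1.03 ± 0.241. ROR2, a WNT5A receptor, rose there by 2.59 ± 0.677 (adjusted p = 0.0391) from a mean of 0.0496 to 0.308 CPM. Its counts were 2 and 3 in control, not above the floor of 3 counts, and 21 and 7 in entinostat libraries. BRCA1+ libraries held 3 and 3 ROR2 counts in control and 11 and 9 in entinostat, without a call (log2 1.83 ± 0.709, adjusted p = 0.116). ROR2 passed the filter on low counts through entinostat libraries only, so its entinostat tests are no separate support for a rise. CTNNB1 was at 0.06 (adjusted p = 0.474) and 0.05 (0.518), and AXIN2 at 0.41 (0.327) and 0.57 (0.232). None of the 50 passed the test of the difference between the lines by edgeR.

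Several of these entinostat calls did not hold with a library left out, where fewer of all tested genes were called too. The log2 fold changes kept their sign. In BRCA1+ cells KREMEN2, PTK7 and TCF7 were lost without any of the 4 BRCA1+ libraries (adjusted p = 0.0564 to 0.242). PORCN was lost without BRCA1+ control replicate 2 or either BRCA1+ entinostat library (0.0973 to 0.18), and CCND1 without BRCA1+ control replicate 2 (0.0933) or entinostat replicate 1 (0.112). DVL1, LEF1 and GSK3A were lost without BRCA1+ control replicate 1 or either BRCA1+ entinostat library (0.068 to 0.224), and GSK3A also without BRCA1-null control replicate 1 (0.0583) or 2 (0.0556). In BRCA1-null cells TLE2 was lost without BRCA1-null control replicate 1 (0.0503) or entinostat replicate 1 (0.0542), and TCF7L1 and LEF1 without any of the 4 BRCA1-null libraries (0.0713 to 0.139), LEF1 also without BRCA1+ entinostat replicate 1 (0.0522) or 2 (0.0523). ROR2 was lost without any library but BRCA1-null entinostat replicate 2 (adjusted p = 0.0519 to 0.266, with log2 1.69 without BRCA1-null entinostat replicate 1) and PTK7 without any but BRCA1-null entinostat replicate 1 (0.0581 to 0.223). The WLS calls held in both lines with each library left out.

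Markers of other cell types were low but moved with the groups. The 8 fibroblast markers summed to 13.5 to 18.3 CPM in BRCA1+ control, 27.5 to 35.6 CPM in BRCA1+ entinostat, 39.4 to 56 CPM in BRCA1-null control and 58.3 to 84 CPM in BRCA1-null entinostat libraries, and COL3A1, DCN and LUM were at 0 in all 8 libraries. The 5 endothelial markers summed to 9.58 to 16.3, 27.4 to 38.5, 36.8 to 54.4 and 75.4 to 93.1 CPM in the same order, and the 6 leukocyte markers to 16.6, 23.1 to 25.3, 27.1 to 28.2 and 30.9 to 39.2 CPM, with CD3E at 0 to 4 counts. Of the tested genes on these lists, 3 of 4 fibroblast, 3 of 5 endothelial and 2 of 5 leukocyte markers were higher in BRCA1-null control, while the leukocyte marker CD14 was lower (log2 −2.06 ± 0.352, adjusted p = 0.00148). Under entinostat CD14 and the fibroblast marker PDGFRA were lower in BRCA1-null cells. PDGFRA had 12 and 42 counts in BRCA1+ entinostat and 14 and 2 counts in BRCA1-null entinostat libraries. It passed the filter on low counts only with the BRCA1+ entinostat libraries, so its test is no separate support for that difference. CDH5 contributed to the endothelial sum with means of 5.49, 23.4, 36.8 and 73.4 CPM in the order of groups above, and CD68 made up most of the leukocyte sum, with 9.01, 12.4, 21.2 and 28.1 CPM. DKK3 moved in the same order of groups as these sums, and their part in the values of the Wnt genes was not tested.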

How the data were processed

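RNA-seq was analysed in 8 libraries of 4 groups of 2, grouped by sample title. The authors deposited raw read counts per gene symbol, with gene positions and lengths on hg19, after alignment with TopHat 2 and counting with NGSUtils, and the values carried no normalization. Treatment of strand and of multiply mapped reads was not stated in the sources used here. The 1 unnamed entry, with 0 counts, was left out, and no per-sample column was unused.

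Counts were filtered (filterByExpr, 17714 genes), scaled by TMM and fitted over all libraries (4 residual degrees of freedom) with edgeR 4.0.16 in R 4.3.3. Quasi-likelihood tests compared the lines in each medium, entinostat with control in each line, and the 2 responses. Adjusted p-values are Benjamini-Hochberg over all tested genes, called under 0.05, and ± is SE. CPM used TMM-scaled library sizes, and RPKM divided it by gene length. The script was tested on simulated data. Intervals and the floor of 3 counts cover counting error only.

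Values per library are given for members called in at least 1 contrast with a mean of at least 1 CPM in a group. Up to 3 called pathway genes per list with the largest changes, plus CTNNB1 and AXIN2, were named, and low-count or non-called members were named after their values were seen. Members and lists were chosen with earlier results of these data known. Alternatives were other size factors and filters, DESeq2 1.42.0, a fold threshold, fits of the compared groups alone, a replicate block and leaving out each library, where a lone library is assumed to vary like the other groups.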

Additional observations from a re-analysis of the deposited data

How the results depend on the processing

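The count of called members was 12 to 14 (control) and 11 to 18 (entinostat) between the lines, and 1 to 6 (BRCA1+) and 0 to 2 (BRCA1-null) for entinostat, when each library was left out in turn. In each of these fits fewer of all tested genes were called than with all 8 libraries. The test of the difference between responses gave 0 members under every alternative run, whereas over all genes DESeq2 called 11. For entinostat, requiring a log2 change of at least 1 left 1 member in the BRCA1+ line and 0 in the BRCA1-null line (516 and 532 of all genes). Between the lines it left 10 members in control and 12 under entinostat (2204 and 1864 of all genes). In BRCA1-null cells the entinostat count was 2 without the filter on low counts, 2 by the DESeq2 Wald test and 0 with only these groups fitted (693 of all genes, against 1906). The sign of the uncalled entinostat change in BRCA1-null cells turned without BRCA1-null control replicate 2 or entinostat replicate 1 for WNT3 (−0.19 to 0.20 over all libraries left out) and WNT5B (−0.66 to 0.08). A stricter filter (1 CPM in 2 libraries, 15070 genes) did not test DKK2 and WNT8B. The cause of these shifts was not tested.

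With a replicate block the entinostat count was 5 in BRCA1-null cells (WNT2B, WNT4, WNT5A and WNT10B joined, 3640 of all genes) and 9 in BRCA1+ cells (4314 against 2503 of all genes), and the line counts were 14 and 18. Same-numbered libraries deviated together with r of 0.0523 to 0.287 over 6 pairs of groups, 4 of them over 0.1. The labels do not say what the numbers share, so whether they pair the libraries remains undecided. The biological coefficient of variation, the spread between libraries of a group, was 9.04%. With 2 libraries a group, small differences could be missed, as could moderate ones in genes of few counts.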
